A study of Homo sapiens with 9 samples.

Results

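The 10 genes described here encode the enzymes that make UDP-N-acetylglucosamine (UDP-GlcNAc) by the hexosamine pathway and the pair of enzymes that put O-linked GlcNAc on proteins and take it off. They were taken by name, OGT, OGA, GFPT1, GFPT2, GNPNAT1, PGM3, UAP1, UAP1L1, NAGK and AMDHD2, from the 19257 genes of the deposited count and FPKM tables. All 10 have a row in both tables and all 10 were among the 12574 genes with enough counts to be tested. The data are 9 RNA-seq libraries in 3 groups of 3, all from A549 cells, an established line of human lung adenocarcinoma. NC cells received the Lenti-CRISPR-V2 plasmid empty, and are labelled WT as genotype. OGT_KO cells received the same plasmid directed at OGT and TR11B_KO cells one directed at TR11B, so every group carries a plasmid and none is an untreated line. TR11B was taken to be TNFRSF11B, which encodes osteoprotegerin, since TR11B is the name of that protein's database entry. Table columns carry the name GTsg12 for OGT_KO and TBsg1 for TR11B_KO, each followed by the replicate number. The labels do not explain these names, and a guide sequence, number of clones or editing outcome is not given in the sources used here. Since the columns of a knockout share 1 name, an effect of 1 guide or 1 clone cannot be told apart from that of the knockout.

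The hexosamine pathway branches from glycolysis at fructose 6-phosphate. It draws on glucose, glutamine, acetyl-CoA and UTP, and its end product UDP-GlcNAc is the donor for N-glycans, glycosaminoglycans and glycosylphosphatidylinositol anchors, and for O-GlcNAc on nuclear and cytosolic proteins. GFPT1 and GFPT2 catalyse the committed amidotransferase step, GNPNAT1 adds the acetyl group, PGM3 isomerises the phosphosugar, and UAP1 joins it to the nucleotide. NAGK returns free GlcNAc to the pathway and AMDHD2 takes the acetyl group off again, opposite to GNPNAT1. OGT is the transferase for intracellular O-GlcNAc and OGA the hydrolase that removes it.

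The RefSeq promoter table for GRCh38.p14 holds windows from 250 bases before to 50 after the start for 9 of the 10 genes, 13 windows in all. These motifs were searched on both strands: the E-box CACGTG, the GC box GGGCGG, the cyclic AMP response element core TGACGT and an amino acid response element TGATGNAAT. AMDHD2 was the gene of the 9 with an E-box, and its window had 4 of them, starting 79, 61, 44 and 12 bases before the start. Of all 35116 windows of this length, 7.26% had at least 1 E-box and 5 windows (0.0142%) had 4 or more. GC boxes were found in windows of all 9 genes, 7 of them in GNPNAT1, 7 in AMDHD2, 5 in GFPT2, 4 in GFPT1, 3 in OGA and 1 in OGT, and in 45.0% of all windows. The element core TGACGT was found at 1 place in UAP1, which 2 of its 3 overlapping windows share, and in 7.98% of all windows, and TGATGNAAT in none of the 13 and in 0.991% of all. The 250 bases before the start are given for the amidotransferase pair, which share a reaction but are separate genes, for the O-GlcNAc pair, for the first UAP1 window, since UAP1 was lower in both knockouts along with GFPT2, and for AMDHD2 with its E-boxes. Capitals mark the matches to these motifs, on either strand, and a match describes the sequence alone.
GFPT1 (chr2:69387228-69387477, minus strand, GRCh38.p14): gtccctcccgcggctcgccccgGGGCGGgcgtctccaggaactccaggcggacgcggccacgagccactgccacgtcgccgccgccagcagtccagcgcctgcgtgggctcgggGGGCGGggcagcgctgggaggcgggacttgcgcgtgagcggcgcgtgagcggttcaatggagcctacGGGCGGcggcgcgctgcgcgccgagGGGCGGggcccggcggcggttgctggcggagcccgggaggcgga
GFPT2 (chr5:180353337-180353586, minus strand, GRCh38.p14): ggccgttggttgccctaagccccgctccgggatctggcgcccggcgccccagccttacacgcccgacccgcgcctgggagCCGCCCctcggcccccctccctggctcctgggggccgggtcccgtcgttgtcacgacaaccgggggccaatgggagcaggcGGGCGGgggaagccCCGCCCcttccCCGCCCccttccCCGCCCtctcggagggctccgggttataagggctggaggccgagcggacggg
UAP1 (chr1:162561281-162561530, plus strand, GRCh38.p14): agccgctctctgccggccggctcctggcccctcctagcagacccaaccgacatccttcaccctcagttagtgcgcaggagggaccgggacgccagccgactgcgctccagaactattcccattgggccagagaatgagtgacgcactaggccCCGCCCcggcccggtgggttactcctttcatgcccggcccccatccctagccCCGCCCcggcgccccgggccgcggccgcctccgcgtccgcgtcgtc
AMDHD2 (chr16:2520121-2520370, plus strand, GRCh38.p14): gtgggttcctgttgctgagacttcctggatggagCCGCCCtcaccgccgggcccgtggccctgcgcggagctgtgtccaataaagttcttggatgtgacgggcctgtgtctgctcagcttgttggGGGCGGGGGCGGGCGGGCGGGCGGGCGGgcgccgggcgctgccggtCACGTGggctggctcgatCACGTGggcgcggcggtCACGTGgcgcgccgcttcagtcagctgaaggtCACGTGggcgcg
OGT (chrX:71532854-71533103, plus strand, GRCh38.p14): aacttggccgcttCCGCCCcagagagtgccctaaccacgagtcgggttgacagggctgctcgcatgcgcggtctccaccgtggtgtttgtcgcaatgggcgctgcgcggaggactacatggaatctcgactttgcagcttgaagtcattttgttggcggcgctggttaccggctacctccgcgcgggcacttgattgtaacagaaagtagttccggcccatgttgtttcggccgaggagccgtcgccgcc
OGA (chr10:101818445-101818694, minus strand, GRCh38.p14): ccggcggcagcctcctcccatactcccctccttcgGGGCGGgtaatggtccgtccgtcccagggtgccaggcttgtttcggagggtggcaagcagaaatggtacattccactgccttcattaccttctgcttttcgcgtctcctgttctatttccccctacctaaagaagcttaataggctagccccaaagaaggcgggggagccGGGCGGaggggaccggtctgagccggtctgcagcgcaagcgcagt

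The libraries held 38327508 to 42245970 counts. TMM factors, which scale each library for composition, were 0.951 to 1.16 in 8 libraries and 0.784 in TR11B_KO replicate 2, which stood apart; values without it are given beside the results that rest on it. The epithelial keratins KRT8 and KRT18 reached 2110 to 6170 FPKM in all libraries. The other 3 of the 5 epithelial markers were low, with KRT19 at or under 0.298, EPCAM at or under 0.0315 and CDH1 listed at 0 throughout. Endothelial (3 with a row) and fibroblast (2) markers were under 1 FPKM in every library, and ABCA3, the 1 of 5 listed alveolar type II markers with a row, was at 18.4 to 37.1. Of the 2 leukocyte markers with a row, CD68 was at 1.6 to 3.73 and CD79A at or under 0.276. The epithelial sum was 9520 to 10800 in NC, 5000 to 5770 in OGT_KO and 7710 to 9770 in TR11B_KO, and its part in the results was not tested. TNFRSF11B had 13, 15 and 3 counts in the NC libraries, 1, 0 and 0 in those of OGT_KO, and 3, 1 and 0 in those of TR11B_KO, too few to be tested. OGT had 1239, 1143 and 967 counts in the NC libraries, 927, 1255 and 960 in those labelled OGT_KO, and 716, 356 and 484 in those labelled TR11B_KO. The mRNA of the OGT_KO target was thus called lower in the other knockout and not in its own. An edited gene can still be transcribed, so this does not show whether the edit was made, and every direction given here rests on the labels.

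A gene's level across libraries is given in CPM, its counts scaled to 1e+06 per library after TMM, and levels of different genes were compared in FPKM, which divides by gene length. In NC the order was AMDHD2 at 30.3 ± 2.97 FPKM (SD, n = 3), NAGK at 24.2 ± 1.73, UAP1L1 at 18.1 ± 0.668, UAP1 at 4.14 ± 0.293, OGT at 3.14 ± 0.286, GNPNAT1 at 2.31 ± 0.0845, GFPT2 at 2.12 ± 0.312, OGA at 0.745 ± 0.0922, GFPT1 at 0.692 ± 0.0846 and PGM3 at 0.364 ± 0.0528. The libraries of GNPNAT1 and GFPT2, and those of OGA and GFPT1, overlapped, while all other neighbours in this order were apart in every NC library. The salvage and deacetylase genes thus had higher mRNA levels than the genes of the forward steps, AMDHD2 being above 84.2% of all tested genes and PGM3 above 30.2%. The order of the first 3 genes was the same in OGT_KO and TR11B_KO. GFPT2 also kept its place, the seventh, while its level went from 2.12 FPKM in NC to 0.7 ± 0.0416 in OGT_KO and 0.663 ± 0.391 in TR11B_KO. In OGT_KO, OGT at 3.04 ± 0.635 stood ahead of UAP1 at 2.46 ± 0.225, and OGA was last at 0.377 ± 0.203, with overlapping libraries in OGT and UAP1 and in OGA and PGM3. In TR11B_KO, GNPNAT1 at 2.2 ± 0.777 stood ahead of UAP1 at 2.03 ± 1.12 and of OGT at 1.45 ± 0.471, and the libraries of UAP1 overlapped those of both. In bulk RNA, fewer cells that express a gene and less RNA per cell cannot be told apart.

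**Figure D1:**
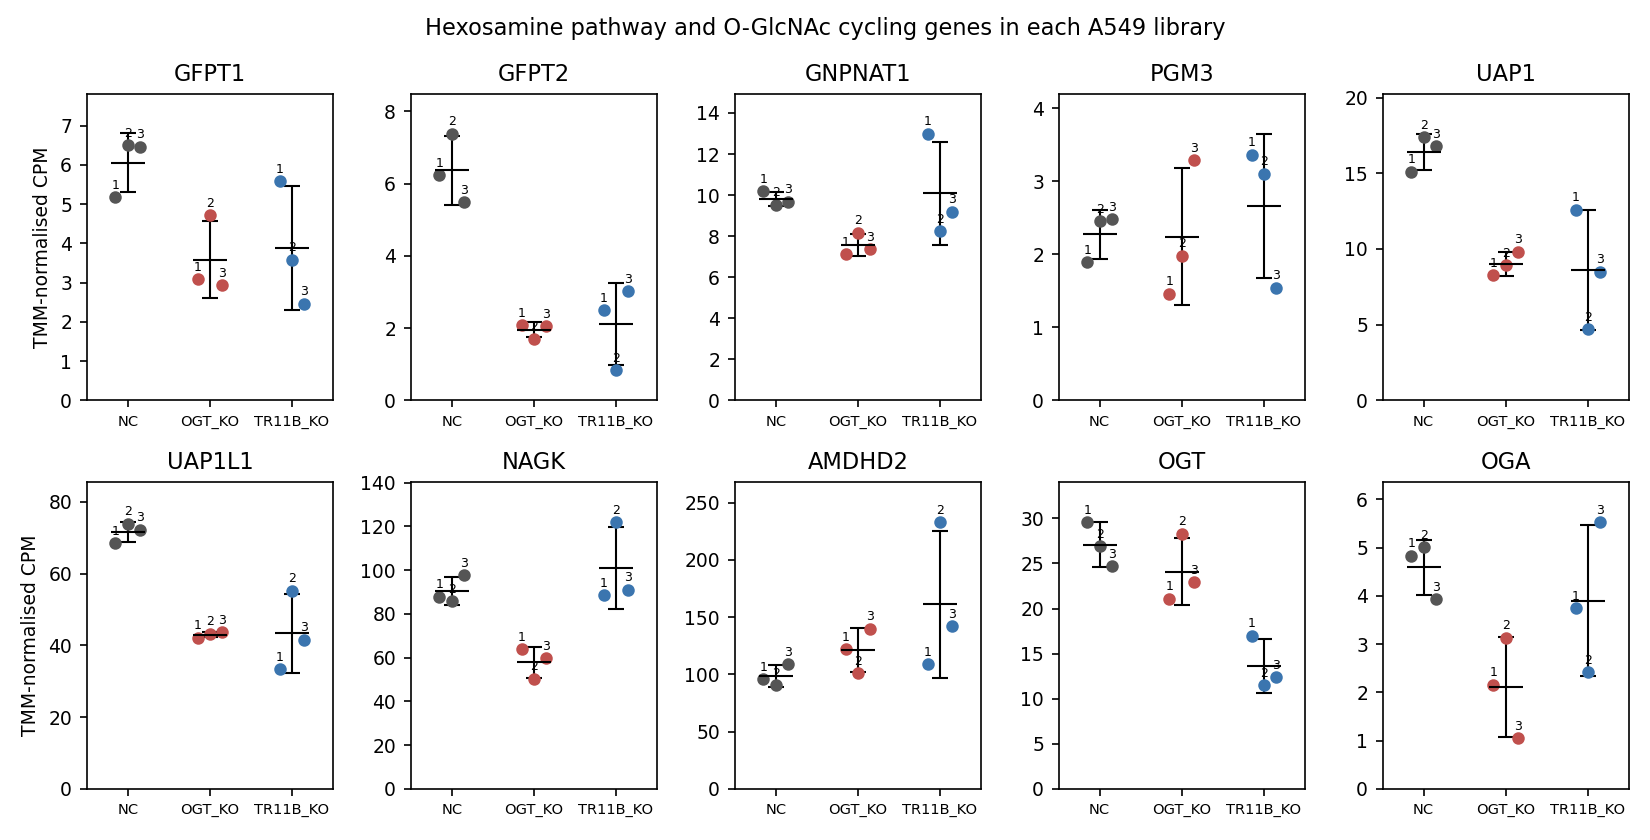
Level of each of the 10 genes in TMM-normalised CPM (vertical axis from 0, a scale of its own per gene), in the 3 NC, 3 OGT_KO and 3 TR11B_KO libraries. Points are libraries with their replicate number, and the bars give the mean and SD. GFPT2 lay at 5.49 to 7.39 CPM in NC and at or under 3.02 in all 6 knockout libraries.

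In OGT_KO against NC, 5 of the 10 genes fell and none rose, where 18.3% of all tested genes were called (8.26% higher and 10.1% lower). The genes that fell were GFPT2, UAP1, UAP1L1, NAGK and OGA. DESeq2 also called 5 lower and 0 higher, and 0 rose at an unadjusted edgeR p under 0.05. The median log2 fold change of the 10 was −0.69, against 0.03 over all tested genes. In 7 of the 10, all 3 OGT_KO libraries lay below all 3 NC libraries, while groups did not overlap in either direction for 49.8% of all tested genes. Calls are edgeR quasi-likelihood tests with Benjamini-Hochberg adjustment over all tested genes, at an adjusted p under 0.05, and SE is the standard error of a log2 fold change. In TR11B_KO against NC, 1 gene rose (AMDHD2) and 4 fell (GFPT2, UAP1, UAP1L1 and OGT), where 27.6% of all tested genes were called (13.2% higher and 14.3% lower). The median of the 10 was −0.44, against −0.01 over all. For 4 of the 10, all TR11B_KO libraries were below all NC libraries, where groups did not overlap for 40.9% of all tested genes. Both comparisons use the same 3 NC libraries, so they are set side by side and their likeness is not read as a result. OGT_KO against TR11B_KO, which does not use NC, gave 1 gene higher in OGT_KO (OGT) and 1 lower (NAGK), with 33.2% of all tested genes called (16.7% higher, 16.5% lower). Groups were apart for 3 of the 10, 1 higher and 2 lower, and for 44.9% of all tested genes. With library totals in place of TMM, the calls over all genes moved from 1039 higher and 1264 lower to 1369 and 890 in OGT_KO, from 1666 and 1803 to 1180 and 2030 in TR11B_KO, and from 2104 and 2070 to 3084 and 1268 between the knockouts, with medians over all genes at 0.147, −0.152 and 0.314.

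**Figure D2:**
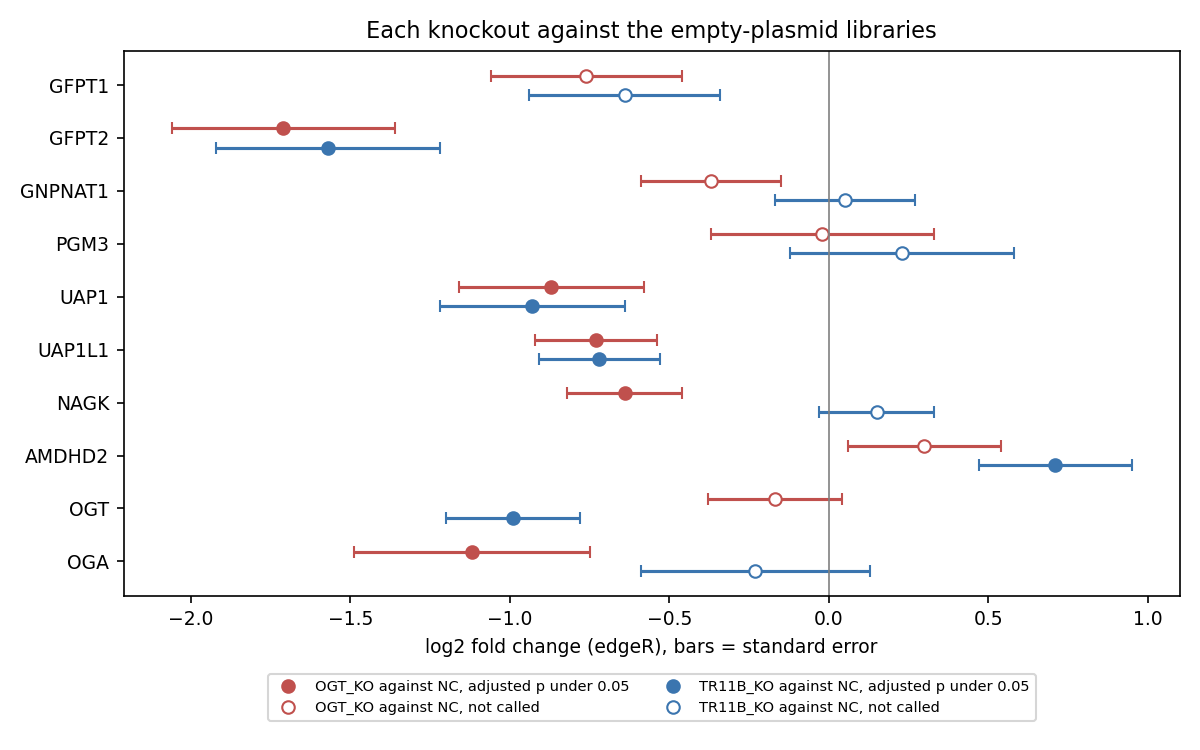
Log2 fold change (horizontal axis) of each gene in OGT_KO and in TR11B_KO against the same NC libraries, with bars of 1 standard error; filled points passed an adjusted p under 0.05. GFPT2 has the lowest value in both knockouts, and NAGK and OGA (OGT_KO) and OGT and AMDHD2 (TR11B_KO) have a filled point in 1 comparison alone.

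GFPT2 and GFPT1 encode the amidotransferases that commit fructose 6-phosphate and glutamine to the pathway. GFPT2 (chromosome 5, 180300698 to 180353336, GRCh38.p14) was at 6.24, 7.39 and 5.49 CPM in the NC libraries, 2.09, 1.71 and 2.05 in those of OGT_KO, and 2.5, 0.838 and 3.02 in those of TR11B_KO. Every knockout library was below every NC library. GFPT2 fell by 1.71 ± 0.35 (log2, SE; adjusted p = 0.00469, edgeR), to 0.306 of the NC level, in OGT_KO and by 1.57 ± 0.35 (adjusted p = 0.00528), to 0.336, in TR11B_KO. Both calls held under all 21 alternatives, where the log2 values ran from −1.81 to −0.87 and from −1.91 to −0.93. Without TR11B_KO replicate 2, the lowest library, the fall in TR11B_KO was 1.17 (log2 −1.17, adjusted p = 0.000706). Between the knockouts the log2 difference was −0.13, with a 95% interval of −0.89 to 0.63.

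GFPT1 (chromosome 2, 69319780 to 69387227) was at 5.18, 6.5 and 6.46 CPM in the NC libraries, 3.09, 4.71 and 2.93 in those of OGT_KO, and 5.59, 3.58 and 2.46 in those of TR11B_KO. All OGT_KO libraries were below NC, whereas TR11B_KO replicate 1 overlapped it. GFPT1 did not pass the edgeR test in either knockout, with log2 fold changes of −0.76 ± 0.30 (SE; adjusted p = 0.0938) and −0.64 ± 0.30 (adjusted p = 0.127). In OGT_KO it passed under 5 of 21 alternatives: without TR11B_KO replicate 1 (log2 −0.74, adjusted p = 0.0365) or 2 (−0.76, adjusted p = 0.0181), in the fit of those 2 groups alone (−0.75, adjusted p = 0.00382), with an offset for gene length (−0.93, adjusted p = 0.0322) and with offsets for length and GC (−1.21, adjusted p = 0.00167). Between the knockouts GFPT1 had a log2 difference of −0.12 (adjusted p = 0.793), which was called under 1 alternative, length and GC offsets (−0.70, adjusted p = 0.0276). In TR11B_KO it passed without TR11B_KO replicate 1 (log2 −0.95, adjusted p = 0.0181).

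GNPNAT1, the acetyltransferase (chromosome 14, 52775193 to 52791607), was at 10.2, 9.53 and 9.68 CPM in the NC libraries, 7.12, 8.17 and 7.38 in those of OGT_KO, and 13, 8.25 and 9.19 in those of TR11B_KO. OGT_KO lay below NC in every library, with a log2 fold change of −0.37 ± 0.22 (SE; adjusted p = 0.251, edgeR), and TR11B_KO lay on both sides of NC (0.05, adjusted p = 0.883). PGM3, the mutase (chromosome 6, 83148705 to 83193900), was at 1.89, 2.45 and 2.48 CPM in the NC libraries, 1.46, 1.98 and 3.29 in those of OGT_KO, and 3.36, 3.1 and 1.54 in those of TR11B_KO. Its 3 groups overlapped, and its log2 fold changes were −0.02 ± 0.35 (adjusted p = 0.976) and 0.23 ± 0.35 (adjusted p = 0.662). Between the knockouts the log2 difference of GNPNAT1 was −0.43 (adjusted p = 0.149), and that of PGM3 was −0.25 (adjusted p = 0.622), so that neither gene of these middle steps was called in the 3 comparisons. PGM3 was called under none of the 21 alternatives. GNPNAT1 was called lower in OGT_KO than in NC with length and GC offsets (−0.59, adjusted p = 0.0132). It was called lower in OGT_KO than in TR11B_KO when TR11B_KO replicate 2 was left out (−0.58, adjusted p = 0.0216), when the fit had an offset for length (−0.57, adjusted p = 0.0468) and with length and GC offsets (−0.72, adjusted p = 0.00276). The intervals were wide for PGM3, from −0.77 to 0.73 in OGT_KO, and a change within that interval is not excluded. Exons of both overlap a gene on the other strand, and no source used here gives the strand setting of the counting. For GNPNAT1 that gene is antisense and was not analysed here. For PGM3 it is DOP1A, which had 6, 9 and 12 counts in the NC libraries, 49, 46 and 25 in those of OGT_KO, and 3, 4 and 9 in those of TR11B_KO. DOP1A was called higher in OGT_KO than in NC (log2 2.04, adjusted p = 0.0215, edgeR) and not called in TR11B_KO (−0.61, adjusted p = 0.507).

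UAP1 and its paralogue UAP1L1 stand at the last step, where UAP1 joins the phosphosugar to UTP. UAP1 (chromosome 1, 162561531 to 162601240) was at 15.1, 17.4 and 16.8 CPM in the NC libraries, 8.26, 8.92 and 9.83 in those of OGT_KO, and 12.6, 4.68 and 8.5 in those of TR11B_KO. All 6 knockout libraries were below NC, tightly so in OGT_KO and with a wide spread in TR11B_KO. UAP1 fell by 0.87 ± 0.29 (log2, SE; adjusted p = 0.0492, edgeR) in OGT_KO and by 0.93 ± 0.29 (adjusted p = 0.0279) in TR11B_KO. UAP1L1 (chromosome 9, 137077517 to 137084538) was at 68.5, 74 and 72.3 CPM in the NC libraries, 42.2, 43.3 and 43.6 in those of OGT_KO, and 33.4, 55.3 and 41.6 in those of TR11B_KO. It too was lower in all 6 knockout libraries, and fell by 0.73 ± 0.19 (adjusted p = 0.0156) and by 0.72 ± 0.19 (adjusted p = 0.0121). The difference between the knockouts had 95% intervals of −0.55 to 0.67 for UAP1 and −0.41 to 0.39 for UAP1L1. The UAP1 calls against NC held under 8 of 21 alternatives in OGT_KO and 14 of 21 in TR11B_KO. In OGT_KO it was lost with library totals (adjusted p = 0.164), CPM of at least 1 (0.0505), the replicate block (0.0757) and limma (0.121 to 0.191). In TR11B_KO the UAP1 call was lost with library totals (adjusted p = 0.0543), the 2-group fit (0.0734) and unfiltered limma (0.0626). The OGT_KO calls of both genes were lost without any 1 of the 3 NC or 3 OGT_KO libraries, with log2 values of −0.94 to −0.81 and adjusted p of 0.101 to 0.161 for UAP1, and −0.77 to −0.71 and 0.0504 to 0.0698 for UAP1L1; that of UAP1 was lost also without TR11B_KO replicate 3 (−0.87, adjusted p = 0.0656). In TR11B_KO, UAP1 lost its call without NC replicate 1, 2 or 3 (adjusted p = 0.061, 0.0905 and 0.0681) or TR11B_KO replicate 3 (adjusted p = 0.0728), UAP1L1 lost it without NC replicate 2 (adjusted p = 0.0532) and when length was an offset (−0.56, adjusted p = 0.0599), and without TR11B_KO replicate 2 the log2 values were −0.61 and −0.9 and both were called.

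NAGK is the kinase that phosphorylates GlcNAc freed from broken-down glycans. NAGK (chromosome 2, 71068296 to 71079808) was at 87.9, 85.9 and 97.7 CPM in the NC libraries, 64, 50.3 and 59.6 in those of OGT_KO, and 88.7, 122 and 91 in those of TR11B_KO. The OGT_KO libraries were below all others, while TR11B_KO overlapped NC. NAGK fell by 0.64 ± 0.18 (log2, SE; adjusted p = 0.0227, edgeR) in OGT_KO, and its log2 fold change in TR11B_KO was 0.15 ± 0.18 (adjusted p = 0.548). The 2 knockouts differed directly, OGT_KO being lower by a log2 difference of −0.80 ± 0.18 (adjusted p = 0.00407), and that call held under all 21 alternatives (log2 −0.96 to −0.50, and −0.66 without TR11B_KO replicate 2). Against NC the call was lost without any 1 of the 3 NC or 3 OGT_KO libraries (log2 −0.72 to −0.55, adjusted p = 0.0533 to 0.108) and with length and GC offsets (log2 −0.43, adjusted p = 0.16). With the replicate block it was lost as well (adjusted p = 0.0588).

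AMDHD2 encodes the deacetylase that undoes the GNPNAT1 step, and its promoter is the one with 4 E-boxes. The gene (chromosome 16, 2520371 to 2531417) was at 95.6, 90.7 and 109 CPM in the NC libraries, 122, 101 and 140 in those of OGT_KO, and 109, 233 and 142 in those of TR11B_KO. TR11B_KO replicate 2 was the highest library, and NC replicate 3 overlapped both knockouts. AMDHD2 rose in TR11B_KO by 0.71 ± 0.24 (log2, SE; adjusted p = 0.04, edgeR), and its log2 fold change in OGT_KO was 0.30 ± 0.24 (adjusted p = 0.41). The call in TR11B_KO held under 7 of 21 alternatives. That call was lost with library totals (adjusted p = 0.0564), the 2-group fit (0.0844), the replicate block (0.0759) and limma (0.0785 to 0.136). It was lost without TR11B_KO replicate 2 (log2 0.39, adjusted p = 0.0541) or 3 (0.79, adjusted p = 0.0561), and without NC replicate 1 (0.69, adjusted p = 0.121), 2 (0.65, adjusted p = 0.14) or 3 (0.79, adjusted p = 0.0687), and without any 1 of the OGT_KO libraries (adjusted p = 0.055 to 0.0649). In OGT_KO it was called higher in the fit of those 2 groups alone (0.31, adjusted p = 0.037) and with length and GC offsets (0.37, adjusted p = 0.0333). Between the knockouts the log2 difference was −0.41 (adjusted p = 0.2), called without TR11B_KO replicate 1 (−0.68, adjusted p = 0.0168). CEMP1 lies on the other strand over 31.677% of the AMDHD2 exon bases, and had 1 to 15 counts per library. AC093525.1, annotated as protein-coding, lies on the same strand over 8.658% of them and has no row of its own.

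OGT and OGA, which write and erase O-GlcNAc, were each called against NC in a different group. OGT (chromosome X, 71533104 to 71575892) was at 29.6, 26.9 and 24.7 CPM in the NC libraries, 21.1, 28.3 and 22.9 in those of OGT_KO, and 17, 11.5 and 12.4 in those of TR11B_KO. Its TR11B_KO libraries were below all others, and OGT_KO overlapped NC (log2 −0.17 ± 0.21, adjusted p = 0.607, edgeR; called lower under 1 of 21 alternatives, length and GC offsets, at −0.43 with adjusted p = 0.0283). The fall in TR11B_KO was called under all 21 alternatives, with log2 values from −1.12 to −0.63 around the value of −0.99 ± 0.21 (SE; adjusted p = 0.00393, edgeR). It stood at −0.85 without TR11B_KO replicate 2, and at −0.69 with an offset for gene length. When the tested genes were split into 5 classes by length, OGT and GFPT1 were in the longest (7154 to 47609 bases), which had a median log2 fold change of −0.31 in TR11B_KO and 0.21 in OGT_KO, against 0.43 and 0.08 in the shortest. The direct difference of 0.82 ± 0.21 (adjusted p = 0.00882) was lost with that offset (0.36, adjusted p = 0.156), with offsets for length and GC (0.20, adjusted p = 0.272) and without OGT_KO replicate 2 (0.69, adjusted p = 0.0581).

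OGA (chromosome 10, 101784450 to 101818444) was at 4.83, 5.01 and 3.93 CPM in the NC libraries, 2.16, 3.13 and 1.05 in those of OGT_KO, and 3.74, 2.42 and 5.53 in those of TR11B_KO. OGT_KO was below NC throughout, with replicate 3 the lowest, and TR11B_KO lay on both sides of NC. OGA was called lower in OGT_KO (log2 −1.12 ± 0.37, adjusted p = 0.0474, edgeR) and not in TR11B_KO (−0.23 ± 0.36, adjusted p = 0.662), and the direct difference did not pass (−0.88 ± 0.37, adjusted p = 0.0778). The OGT_KO call held under 10 of 21 alternatives. That call was lost with library totals (adjusted p = 0.138), CPM of at least 1 (0.051), the replicate block (0.0765) and limma (0.108 to 0.175). It was lost without NC replicate 1 (adjusted p = 0.129), 2 (0.134) or 3 (0.0777) and without OGT_KO replicate 1 (0.129) or 3 (log2 −0.80, adjusted p = 0.169). The direct difference passed under 7 of 21 alternatives: DESeq2 (log2 −0.96, adjusted p = 0.0358), RLE factors (−0.96, adjusted p = 0.0492), no filter on low counts (−0.91, adjusted p = 0.0134), the length offset (−1.22, adjusted p = 0.0174), length and GC offsets (−1.38, adjusted p = 0.00558), and the fits that left out TR11B_KO replicate 2 (−1.16, adjusted p = 0.00264) or OGT_KO replicate 2 (−1.28, adjusted p = 0.0429).

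Ratios within a library do not depend on library scaling. Trends with gene length or GC can still move them, and the ratios were not adjusted for these. Per base of gene length, OGT mRNA was 4.38, 3.83 and 4.49 times OGA in the NC libraries, 6.97, 6.45 and 15.6 times in those of OGT_KO, and 3.26, 3.39 and 1.6 times in those of TR11B_KO. The 3 groups did not overlap, OGT_KO being highest and TR11B_KO lowest. The mean log2 ratio differed from NC by 1.07 in OGT_KO and by −0.70 in TR11B_KO, and between the knockouts by 1.77, each with p = 0.1 in the exact two-sided permutation test, the smallest that 3 against 3 allows (adjusted p = 0.225 over 9 ratio comparisons). GFPT1 was 0.286, 0.302 and 0.405 of GFPT2 in the NC libraries, 0.509, 0.946 and 0.492 in those of OGT_KO, and 0.77, 1.47 and 0.28 in those of TR11B_KO. The ratio was higher in every OGT_KO library than in NC (log2 difference 0.92, exact permutation p = 0.1, adjusted p = 0.225), while TR11B_KO replicate 3 was below NC (1.06, exact p = 0.4). UAP1 was 0.219, 0.234 and 0.231 of UAP1L1 in the NC libraries, 0.195, 0.205 and 0.225 in those of OGT_KO, and 0.377, 0.0843 and 0.204 in those of TR11B_KO, with log2 differences from NC of −0.13 (exact p = 0.2) and −0.29 (exact p = 0.7). OGT_KO overlapped NC in this ratio, and TR11B_KO scattered to both sides of it.

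**Figure D3:**
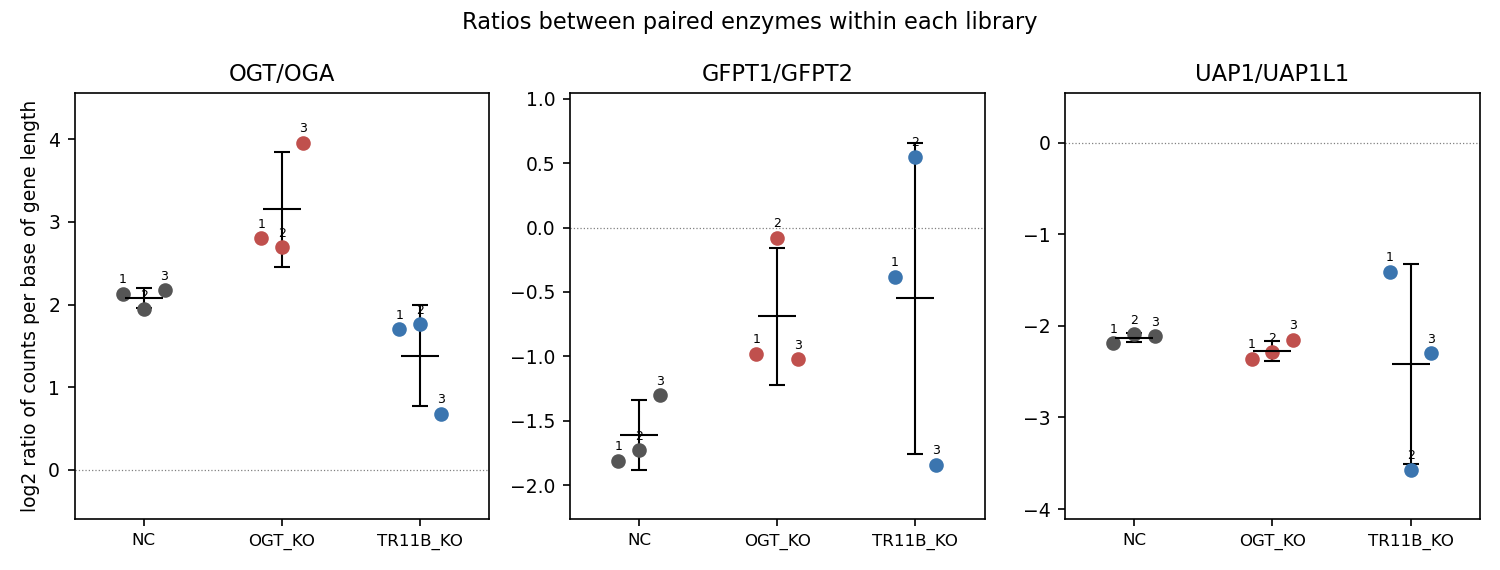
Log2 ratio of counts per base of gene length (vertical axis) for OGT over OGA, GFPT1 over GFPT2 and UAP1 over UAP1L1 in each library; points are libraries with their replicate number, bars the mean and SD of each group of 3, and the dotted line marks equal levels. The OGT over OGA ratio separates the 3 groups, and in TR11B_KO the other ratios spread widely.

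Around the pathway, 50 genes that supply it, reverse it or use its product were listed, of which 49 have a row and 43 were tested. HEXA was not analysed here. In OGT_KO 2 of the 43 rose and 7 fell (median log2 −0.02), and in TR11B_KO 3 rose and 9 fell (median −0.18). Taken in either direction, these shares lie near the 18.3% and 27.6% of all tested genes. By direction, 8.26% of all tested genes rose and 10.1% fell in OGT_KO, and 13.2% rose and 14.3% fell in TR11B_KO. Of 14 substrate supply genes, 2 rose and 3 fell in OGT_KO, and 1 rose and 4 fell in TR11B_KO. SLC38A2, a glutamine transporter, was at 22.2, 20.2 and 20.1 CPM in the NC libraries, 53.7, 57.8 and 46 in those of OGT_KO and 18.1, 17.8 and 19.2 in those of TR11B_KO, and rose in OGT_KO by 1.33 ± 0.17 (log2, SE; adjusted p = 0.000211, edgeR). Its OGT_KO level was also above that of TR11B_KO, by 1.51 ± 0.17 (adjusted p = 3.53e-05), and both calls held under all 21 alternatives. ACLY, which makes cytosolic acetyl-CoA from citrate, fell in TR11B_KO by 1.18 ± 0.24 (adjusted p = 0.00355), as did GLUL, glutamine synthetase, by 0.90 ± 0.19 (adjusted p = 0.00437; −0.49 with length and GC offsets, still called). The supply genes that follow are outside the rule for naming and were chosen after their values were seen. ACSS2 (acetyl-CoA from acetate) rose in OGT_KO (log2 0.63) and TR11B_KO (0.69), and UMPS (pyrimidine synthesis) fell in both (log2 −1.02 and −1.24). In OGT_KO HK2 (hexokinase) fell by 1.31 and SLC1A5 (glutamine uptake) by 1.04. SLC2A1 (glucose uptake) fell in TR11B_KO by 0.67 ± 0.16 (adjusted p = 0.00713, edgeR). Its OGT_KO level was above that of TR11B_KO by 0.93 ± 0.16 (adjusted p = 0.000708), and both SLC2A1 calls held under all 21 alternatives. In OGT_KO the calls were lost for SLC1A5 without OGT_KO replicate 2 (adjusted p = 0.0509), for ACSS2 without NC replicate 1 or 3 or OGT_KO replicate 1 or 3 (up to 0.0715), and for UMPS without NC replicate 1 or 2 or any 1 OGT_KO library (up to 0.0774). UMPS also lost that call with library totals (adjusted p = 0.0773) and with limma on log2(FPKM + 0.1) (0.0874) or unfiltered (0.0713). Unfiltered limma lost the OGT_KO call of HK2 too (0.0616).

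Of the 6 tested genes that reverse the amidotransferase step or release GlcNAc, none was called in OGT_KO by edgeR or DESeq2, and 2 had an unadjusted p under 0.05. NAGLU, a lysosomal N-acetylglucosaminidase, rose in TR11B_KO by 0.79 ± 0.19 (log2, SE; adjusted p = 0.00782), while CTBS (1.14, adjusted p = 0.0544) did not pass there. Of 6 genes on the way to UDP-GalNAc and sialic acid, NANS (sialic acid synthase) fell in OGT_KO by 0.60 ± 0.17 (adjusted p = 0.0255) and GNE, the first enzyme of that branch, fell in TR11B_KO by 1.05 ± 0.29 (adjusted p = 0.0171). NAGLU lost its call without NC replicate 2 (adjusted p = 0.0511), GNE without NC replicate 2 or TR11B_KO replicate 3 (up to 0.0929), and NANS without any 1 NC library or OGT_KO replicate 2 or 3 (up to 0.127) and with length and GC offsets (−0.46, adjusted p = 0.0778). NANS also lost its call with the replicate block (adjusted p = 0.0569) and with unfiltered limma (0.0675). The transporters of UDP-GlcNAc and related sugars into the Golgi and endoplasmic reticulum had no call in OGT_KO by either tool (1 of 4 at an unadjusted edgeR p under 0.05). In TR11B_KO SLC35A3, a Golgi UDP-GlcNAc transporter at 0.4 to 0.639 CPM in NC and 0.845 to 1.43 in TR11B_KO, rose by 1.26 ± 0.41 (adjusted p = 0.0328), and SLC35D1 fell by 1.11 ± 0.40 (adjusted p = 0.0499). The first call was lost without NC replicate 1 or 2 or TR11B_KO replicate 1 (with p at most 0.123 after adjustment), and that of SLC35D1 without 7 of the 9 libraries (up to 0.195), all but NC replicate 3 and TR11B_KO replicate 1. Under the 21 alternatives SLC35A3 was called in 12 and SLC35D1 in 4. With limma SLC35A3 stood at 0.05 to 0.34 (adjusted p = 0.134 to 0.191). SLC35A1 (CMP-sialic acid transport) and SLC35B4 were called in neither knockout against NC, with log2 values of 1.06 (adjusted p = 0.0972) and 0.12 in OGT_KO, and 0.18 and −0.63 (adjusted p = 0.0949) in TR11B_KO.

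Of 13 tested enzymes that spend UDP-GlcNAc, 3 fell in each knockout and none rose by edgeR or DESeq2. At an unadjusted edgeR p under 0.05, 0 were higher in OGT_KO and 1 in TR11B_KO. Over all tested genes, edgeR called 10.1% lower and 8.26% higher in OGT_KO, and 14.3% lower and 13.2% higher in TR11B_KO. EXT1, a polymerase of heparan sulphate, was at 45.9, 46.3 and 32.6 CPM in the NC libraries, 21.3, 24.6 and 21.1 in those of OGT_KO and 18.4, 7.45 and 18.6 in those of TR11B_KO, below NC in all 6 knockout libraries. Its log2 fold changes were −0.90 ± 0.29 (SE; adjusted p = 0.0427, edgeR) and −1.49 ± 0.29 (adjusted p = 0.00251). Its partner EXT2 and the related EXTL3 fell in TR11B_KO, by 0.76 ± 0.23 (adjusted p = 0.0277) and 0.85 ± 0.18 (adjusted p = 0.00347), and had log2 fold changes of −0.43 (adjusted p = 0.214) and −0.30 (adjusted p = 0.245) in OGT_KO. In OGT_KO the others that fell were HAS3 (−0.48, hyaluronan synthesis) and MGAT1 (−0.55, N-glycan branching), chosen after their values were seen. The OGT_KO calls of EXT1, HAS3 and MGAT1 were lost without any 1 of the 3 NC or 3 OGT_KO libraries (adjusted p up to 0.144, 0.159 and 0.132), and that of HAS3 also without TR11B_KO replicate 3. Under the 21 alternatives EXT1 was called in 10, HAS3 in 6 and MGAT1 in 14. The replicate block lost all of these calls (adjusted p = 0.0736, 0.104 and 0.0766). Library totals (0.15 and 0.108) and limma (up to 0.191 and 0.131) lost those of EXT1 and HAS3. In TR11B_KO EXT2 lost its call without NC replicate 1 or 2 (up to 0.106), and EXT1 and EXTL3 kept theirs without any 1 of the 9 libraries. Without TR11B_KO replicate 2, EXT2 stood at −0.49 (adjusted p = 0.0169). EXT2 lost its call with the length offset (−0.45, adjusted p = 0.152), in the fit of those 2 groups alone (adjusted p = 0.0652) and with limma (adjusted p up to 0.0958). With length and GC offsets both EXT2 (−0.25, adjusted p = 0.178) and EXTL3 (−0.32, adjusted p = 0.112) lost theirs, while EXT1 was still called (−1.13, adjusted p = 0.00164).

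**Figure D4:**
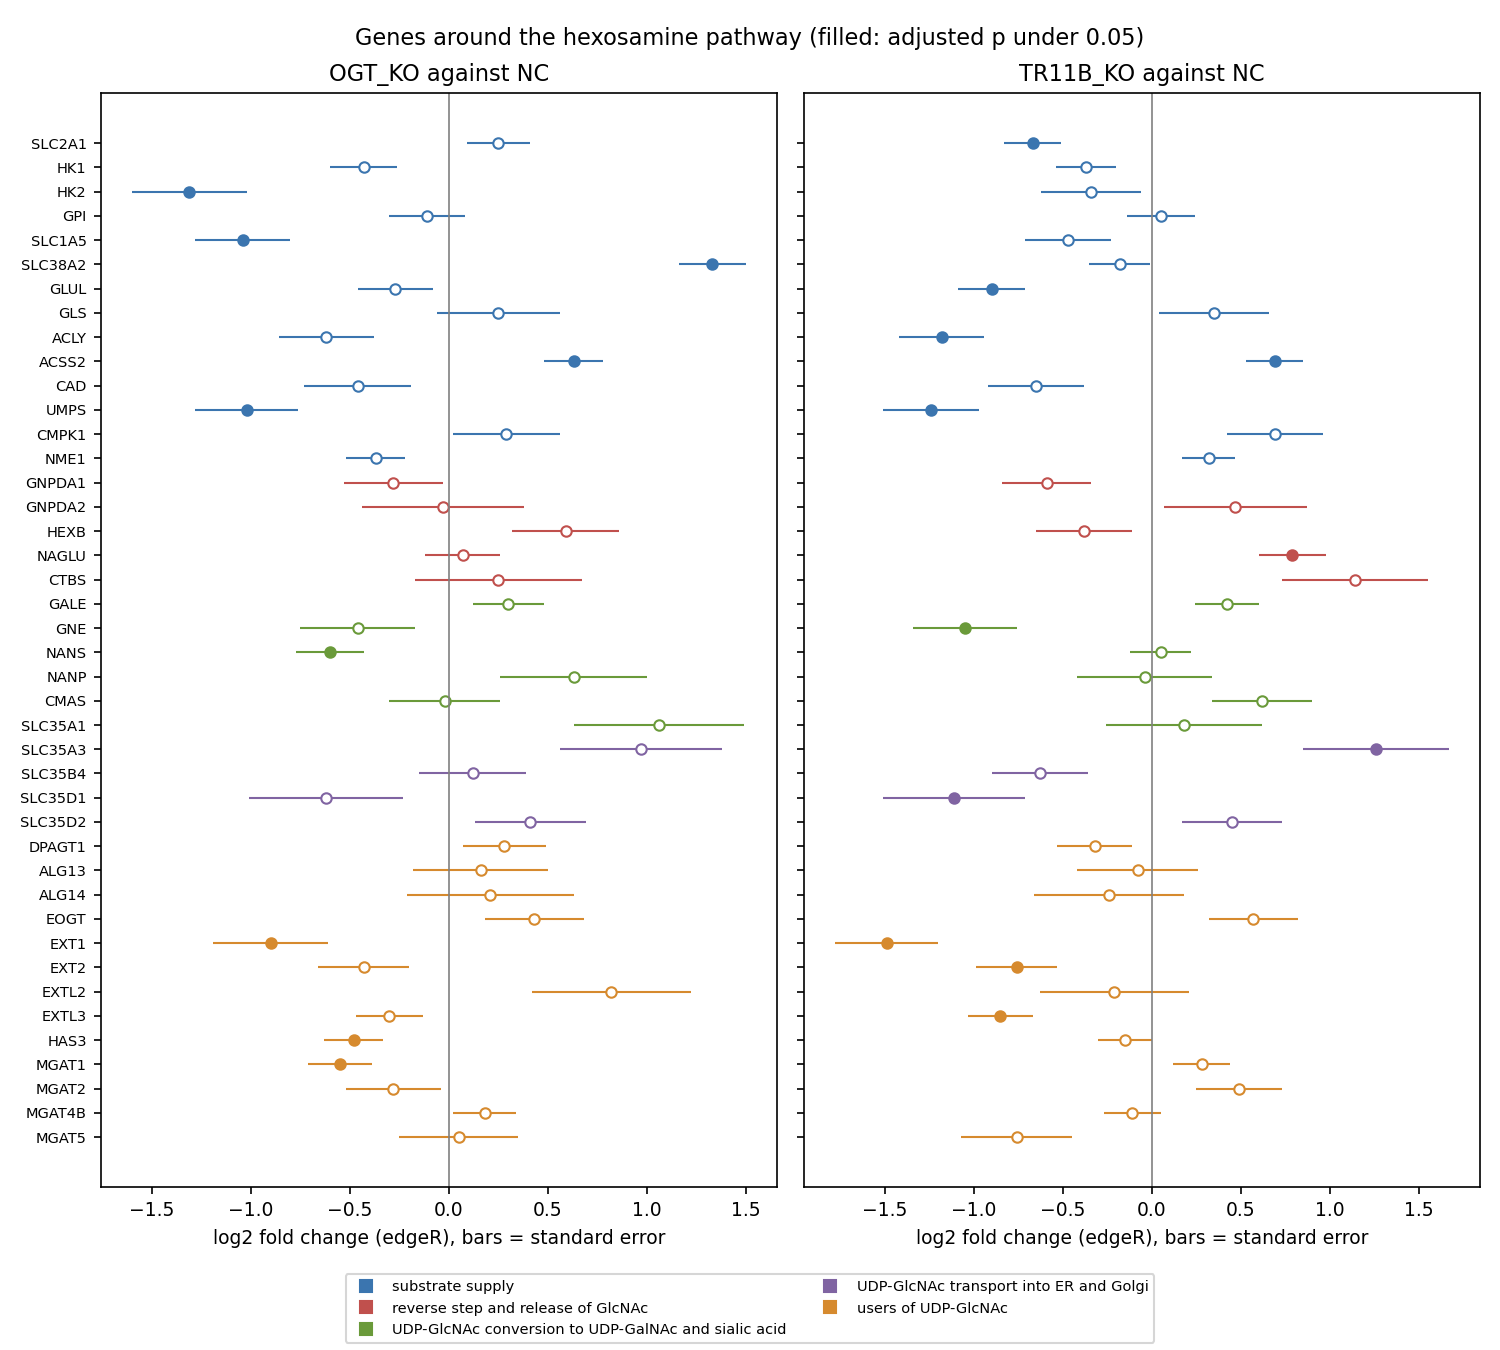
Log2 fold change (horizontal axis, bars of 1 standard error) of 42 of the 43 tested genes around the pathway in OGT_KO and TR11B_KO against the same NC libraries, coloured by role; filled points passed an adjusted p under 0.05. Filled points lie on both sides of 0, with 7 of 9 lower in OGT_KO and 9 of 12 lower in TR11B_KO. Of all tested genes, 8.26% were called higher and 10.1% lower in OGT_KO, and 13.2% higher and 14.3% lower in TR11B_KO.

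The genes whose pattern over the 9 libraries was nearest to that of OGT, OGA and GFPT2 were found by the root mean square difference of log2 CPM, each gene centred on its own mean, among the tested genes averaging a log2 CPM of 2 or more. Nearest to OGT were NUP160 and FAM120A, both at 0.102, and HEATR1 at 0.111, where the median over 7020 genes was 0.567. NUP160, for one, averaged 13.8 CPM in NC, 11.9 in OGT_KO and 7.51 in TR11B_KO. Nearest to OGA were ZNF618 (0.308), PITPNC1 (0.337) and ACBD6 (0.34), against a median of 0.771 over 7021 genes. Nearest to GFPT2 were CERK (0.222), USP39 (0.254) and PTPN9 (0.258), against a median of 0.966. CERK averaged 46.3 CPM in NC, 17.5 in OGT_KO and 14 in TR11B_KO. These distances describe 9 libraries in 3 groups, and genes that differ between the groups in the same way are near each other for that alone.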

How the data were processed

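Per the labels' protocols, A549 total RNA was taken with TRIzol and sequenced from VAHTS Universal V6 libraries. DESeq2, R 3.2.0, HTSeq, HISAT, fastp and the build GRCh38 are named, per the submitters' processing notes, with no role or setting. Whether counting used strand is not given in the sources used here. Raw counts per gene make up the deposited count table, and a further deposited table gives FPKM, scaled by the authors. The count, scaled by its library total and divided by FPKM, gave a gene length that was whole, to 0.01 base, in 17919 of 17923 genes.

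Counts were tested with edgeR 4.0.16 in R 4.3.3 (filterByExpr, 12574 of 19257 genes; TMM; robust quasi-likelihood F test) on all 9 libraries with 1 mean per group. Benjamini-Hochberg adjustment ran over all tested genes, with calls under 0.05. The biological coefficient of variation was 0.241. CPM are counts per 1e+06 of the TMM-scaled total. Intervals at 95% use the fit's degrees of freedom. Titles name biological replicates without saying whether cultures were separate, so p-values reflect only how these samples vary, possibly for technical reasons; replicate counts differed beyond sampling noise in every pair. The 21 alternatives were RLE factors, library totals, DESeq2 1.42.0, 2 other filters, 2-group fits, the replicate number as a block, limma 3.58.1 on log2(FPKM + 1) or log2(FPKM + 0.1), offsets for length and GC, and leaving out each library.

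The 10 genes and the lists were chosen with earlier results of these data known. Text names all 10, up to 3 genes per neighbour list with the smallest adjusted p in either knockout against NC, and the 3 genes nearest in pattern to OGT, OGA and GFPT2; others are marked, and 1 listed gene is counted but not reported here. Positions and promoters are RefSeq's for GRCh38.p14; GC content is GENCODE's.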

Additional observations from a re-analysis of the deposited data

How the results depend on the processing

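The 5 genes called in OGT_KO became 3 with library totals alone, with CPM of at least 1 in 3 libraries and with limma on log2(FPKM + 1), filtered or not, or log2(FPKM + 0.1). They became 8 with length and GC offsets, and 1 to 6 when a library was left out. The 1 was GFPT2, without NC replicate 1, 2 or 3 or OGT_KO replicate 1 or 3; without OGT_KO replicate 2 it was 2. The 5 in TR11B_KO became 3 with library totals, 2-group fits and unfiltered limma, and 2 to 6 when a library was left out. They were 3 without NC replicate 1 or 3 or TR11B_KO replicate 3, and 2 without NC replicate 2. The 2 in the direct comparison became 4 with length and GC offsets, and 2 to 4 when a library was left out (4 without TR11B_KO replicate 2). Genes around the pathway went from 9 in OGT_KO to 21 in 2-group fits, 4 with unfiltered limma, 14 with length and GC offsets and 3 to 17 on leaving out a library. They went from 12 in TR11B_KO to 7 to 21, and from 13 between the knockouts to 8 in 2-group fits and 4 to 18. Over all genes, 2-group fits called 5095 in OGT_KO and 2251 in TR11B_KO, against 2303 and 3469. Leaving out a library gave 1072 to 4536, 1813 to 4463 and, between the knockouts, 2401 to 5307 against 4174. Of the 630 member values, 495 kept their direction and side of the threshold, 64 lost a call, 22 gained one and 49 changed sign. The cause was not tested.

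No pairing by replicate number was seen: libraries with the same number had correlations of deviations of −0.199 to 0.0687, and 4 of 18 matched their own number best. With 3 libraries per group, these values cannot exclude a pairing. With the number as a replicate block, 2 genes were called in OGT_KO (GFPT2 and UAP1L1) and 5 of the genes around the pathway, and UAP1L1 stood at 0.01 between the knockouts.

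All sign changes were in values that were not called. With library totals, PGM3 in OGT_KO was 0.09, GNPNAT1 and NAGK in TR11B_KO −0.07 and −0.01, and the direct values 0.14 (GFPT1), 0.08 (GFPT2), 0.01 (PGM3) and 0.28 (UAP1L1). In the same order, limma on log2(FPKM + 1) gave 0.02, −0.08, −0.01, 0.05, 0.06, 0 and 0.26, with the same values unfiltered, and log2(FPKM + 0.1) gave 0.03, −0.12, −0.01, 0.15, 0.24, 0.01 and 0.28. With CPM of at least 1, PGM3 in OGT_KO was 0.01. With the length offset, OGA in TR11B_KO was 0.03 and UAP1 between the knockouts −0.04; with length and GC offsets these were 0.14 and −0.14, and UAP1L1 and AMDHD2 between the knockouts 0.14 and 0. When each library was left out in turn, the values ran from −0.40 to 0.21 for PGM3 in OGT_KO, −0.57 to 0.05 for OGA and −0.11 to 0.21 for GNPNAT1 in TR11B_KO, and, between the knockouts, −0.36 to 0.20 for GFPT1, −0.53 to 0.20 for GFPT2, −0.26 to 0.40 for UAP1 and −0.22 to 0.17 for UAP1L1. The ratio differences ran from −0.78 to 0.41 for GFPT1 to GFPT2 between the knockouts, and from −0.80 to 0.28 (TR11B_KO) and −0.41 to 0.67 (between the knockouts) for UAP1 to UAP1L1. Leaving out a library put PGM3 in OGT_KO at 0.03, 0.04, 0.21 and 0.06 (NC replicates 2 and 3, OGT_KO replicates 1 and 2), OGA in TR11B_KO at 0.05 (TR11B_KO replicate 2) and GNPNAT1 at −0.11 (TR11B_KO replicate 1). Between the knockouts it put GFPT1 at 0.01 and 0.2 (OGT_KO replicate 3, TR11B_KO replicate 1), GFPT2 at 0.2 (TR11B_KO replicate 3), UAP1 at 0 and −0.26 (OGT_KO replicate 3, TR11B_KO replicate 2) and UAP1L1 at 0 and 0.17 (OGT_KO replicate 1, TR11B_KO replicate 2). The GFPT1 to GFPT2 ratio between the knockouts became 0, 0.03 and 0.41 without OGT_KO replicate 1, OGT_KO replicate 3 or TR11B_KO replicate 2. Without the last, the UAP1 to UAP1L1 ratio became 0.28 against NC and −0.41 between the knockouts. Depth limits PGM3, OGA and GFPT2 most, with as few as 60, 44 and 26 counts in a library.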
